A study of Mus musculus with 3 samples.

Results

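The AP-1 and EGR immediate early factors were described on 3 expression arrays of mouse neurospheres. The genes are Fos, Fosb, Fosl1, Fosl2, Jun, Junb, Jund, Egr1, Egr2 and Ier2, a list chosen with earlier results of these data known, and a gene was measured where a probe set carried its symbol alone. This held for 9 of the 10 genes, out of 22180 genes measured in this way. Neurospheres are floating colonies of neural precursor cells. They were grown from the ventricular-subventricular zone, the stem cell region lining the lateral ventricles. The donors were CD1 pups, wild type, aged 8 days after birth in the sample labels and 7 or 8 days in the growth protocol. Seeding was at 10 cells per microlitre, and the medium held EGF (20 ng/ml), FGF (10 ng/ml), B27 supplement and heparin over the 7 days of culture. The spheres were then broken up by pipetting and the cells counted before lysis and RNA extraction. All 3 arrays belong to this 1 group, and no unstimulated, undissociated or other control culture was analysed here. Pups were cultured separately, but the labels do not say whether each array holds 1 pup, so the spread between arrays may be technical.

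Immediate early genes are transcribed within minutes of a growth factor, neurotransmitter or stress signal, without new protein synthesis. The ERK cascade acts on the promoter-bound factors SRF, ELK and CREB, and the JNK cascade on JUN itself. FOS and JUN proteins pair through a leucine zipper to form AP-1, a factor that binds DNA. JUN proteins can also pair with each other, whereas FOS proteins need a partner. EGR proteins bind GC-rich sites through zinc fingers and are held back by the corepressors NAB1 and NAB2. EGF and FGF, the factors present in this medium, are known inducers of these genes in many cultured cells.

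Promoter stretches are shown for 4 genes, taken from RefSeq on GRCm38.p6. Fos and Fosb are shown because these paralogues fell on different sides of the reference level used below. Fosl2 is shown because it shares a motif with Fosb. Egr2 is shown because, of the 7 genes with a promoter window, it alone held a CArG box within that window. The CArG box is the site bound by SRF. Egr1, Fosl1 and Ier2 had no window and were not searched. Each stretch is the 150 bases just before an annotated start site, written 5′ to 3′ on the gene's strand, and capitals mark the motifs listed after them.
Fos, chr12:85473740-85473889, plus strand: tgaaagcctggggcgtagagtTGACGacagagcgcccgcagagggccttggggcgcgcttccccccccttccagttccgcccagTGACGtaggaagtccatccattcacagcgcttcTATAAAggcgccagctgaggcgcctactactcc
Fosb, chr7:19310046-19310195, minus strand: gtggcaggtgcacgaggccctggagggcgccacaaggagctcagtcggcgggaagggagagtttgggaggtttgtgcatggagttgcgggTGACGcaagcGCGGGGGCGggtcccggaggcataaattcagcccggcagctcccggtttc
Fosl2, chr5:32136322-32136471, plus strand: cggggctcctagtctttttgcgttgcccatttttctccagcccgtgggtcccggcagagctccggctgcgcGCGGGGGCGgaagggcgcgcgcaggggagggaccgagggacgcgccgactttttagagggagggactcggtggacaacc
Egr2, chr10:67537719-67537868, plus strand: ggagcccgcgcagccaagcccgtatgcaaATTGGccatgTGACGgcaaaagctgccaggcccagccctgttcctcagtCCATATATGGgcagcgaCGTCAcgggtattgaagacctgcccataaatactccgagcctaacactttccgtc

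Motifs were searched on both strands of windows from 250 bases before to 50 after each start site. The letters were TGANTCA for AP-1, TGACGTCA for a full CRE, TGACG for the CRE core, which the full CRE contains, GCGNGGGCG for EGR, TATAAA for the TATA box and CCAAT for the box of that name, and the CArG box was searched by its usual definition. Reverse matches show their complement in capitals, as in Egr2. Windows existed for 7 of the 10 genes, 11 windows in all because Egr2 has several starts. A gene with several windows has more chances of a match than a gene with 1. The median GC content was 60% in the 11 windows and 52.7% in all windows. The CRE core, a letter string bound by CREB family factors, was in windows of 4 of these 7 genes (Fos, Fosb, Junb and Egr2). That was 6 of the 11 windows, set beside 20.8% of all 32851 windows. The EGR string was in 2 of the 7 genes (Fosl2 and Fosb) and in 5.55% of all windows. The CArG box was in Egr2 alone of the 7, in 4 of the 11 windows, and in 1.63% of all windows. The TATA box letters were in Fos and Junb, against 13.6% of all windows, and CCAAT in Jun, Junb and Egr2, against 37.4%. In Fos the TATA box letters began 33 bases before the start, whereas in Junb they did not lie before it. The AP-1 letters, present in 7.81% of all windows, and the full CRE, present in 1.79%, were in none of the 11 windows. No searched motif was found in the window of Jund. In Fosb the CRE core began 60 bases and the EGR string 50 bases before the start. In Fos the CRE cores began 129 and 66 bases before it. A match is a string of letters and was not tested as a binding site. Bases further than 250 before a start were not searched, so a gene without a motif in its window may hold it outside.

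The arrays gave RMA signals on the log2 scale, with array medians of 5.87, 5.85 and 5.86. A gene was set against a reference level on its own array, taken from 1405 probe sets for receptors of smell and pheromones as their 95th percentile, which is 5.63, 5.53 and 5.71 on arrays 1, 2 and 3. These receptors belong to the nose and serve as a measure of unspecific signal. A gene was called above when limma's one-sided moderated test gave a Benjamini-Hochberg adjusted p under 0.05 over all genes. This was so for 59.1% of all genes, and for 54 of 1394 receptor genes (3.87%). The prior degrees of freedom of the fit were infinite, so each p rests on a spread shared by genes of like signal. Exactly equal values on all 3 arrays were found for 39.4% of genes, so small SDs understate the true spread. Probes bind with different strength, and the signals of the listed genes were not ranked against each other. The same limit applies to each call, which sets a gene's signal against that of the receptor probe sets.

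Of the 9 measured genes, 7 were above the reference level, set against 59.1% of all genes. These were Fos, Fosl2, Jun, Junb, Jund, Egr1 and Egr2, and each exceeded the level on every array, as 59.6% of all genes did. Fosb and Ier2 were not above, and lay under the level on every array. The median margin, which is the signal minus the reference level, was 2.11 log2 units over the 9 genes and 0.76 over all genes. The largest limma adjusted p among the 7 was 1.10e-68, for Fosl2, a value that reflects the shared spread rather than 3 arrays alone. RNA from whole cultures cannot tell apart fewer cells with a transcript from less transcript in each cell.

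**Figure D1:**
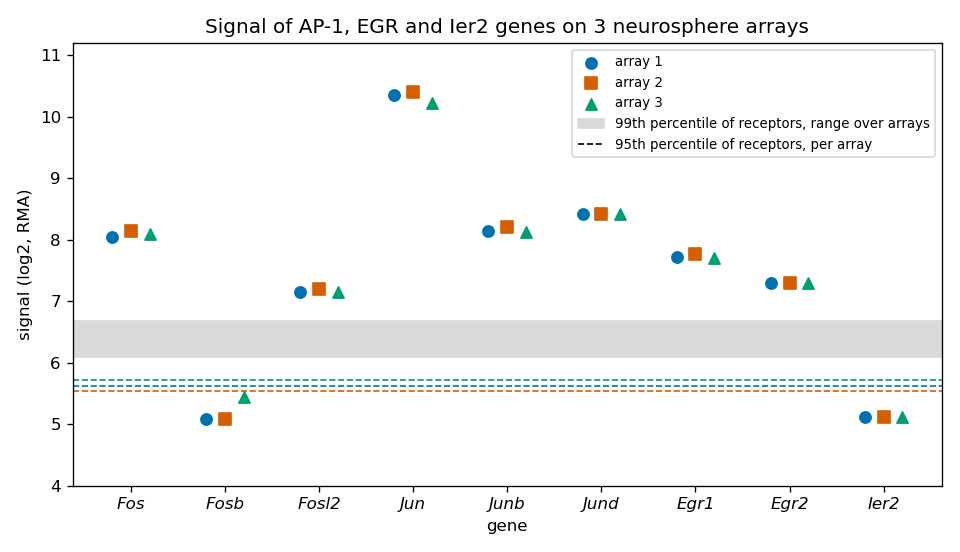
Points give the RMA signal (log2) of each gene on arrays 1, 2 and 3, dashed lines the 95th percentile of the receptor probe sets on the array of the same colour, and the grey band the range over arrays of their 99th percentile. Fosb and Ier2 sit under the dashed lines, and the other 7 genes sit over the grey band on every array; heights of different genes are not comparable.

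The FOS family members divided. Fos, the AP-1 subunit known for the briefest induction, had signals of 8.04, 8.15 and 8.09 on arrays 1, 2 and 3, with a mean of 8.09 ± 0.052 (SD, n = 3). Its margin over the reference level was 2.47 log2 units, and its values were over the 99th percentile of the receptors on each array as well. Fosb, a paralogue known in neurons for a splice form with a long-lived protein, had 5.08, 5.08 and 5.45, with a mean of 5.20 ± 0.21. Fosb was highest on array 3, the array with the highest reference level, and its margins were -0.55, -0.45 and -0.26 there in array order. Of the receptor probe sets, 152 (10.8%) had a mean signal as high as that of Fosb. Its signal on array 3 exceeded the 90th percentile of the receptors, 5.34, while its signals on arrays 1 and 2 did not exceed theirs.

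Fosl2, which encodes FRA2, a FOS protein that lacks the strong activation region of FOS, had 7.16, 7.20 and 7.16. Its mean was 7.17 ± 0.028 and its margin 1.55, and its values on arrays 1 and 3 were equal. Fosl1, which encodes FRA1, has no value here, because the probe set listing it also lists Ccdc85b, its next neighbour in RefSeq. The FOS side of AP-1 therefore held 2 genes above the level and 1 not above among the 3 that were measured.

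All 3 JUN genes were above the reference level. Jun, the founding member and a substrate of JNK, had 10.36, 10.40 and 10.23, a mean of 10.33 ± 0.088 and a margin of 4.71. Array 3 was the lowest of its 3 values. Junb, a weaker activator than JUN at many sites, had 8.14, 8.21 and 8.13, a mean of 8.16 ± 0.040 and a margin of 2.53. Arrays 1 and 3 lay close together for this gene and array 2 slightly over them.

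Jund, the member expressed most steadily without stimulation in many cells, had 8.41, 8.42 and 8.41, with a mean of 8.42 ± 0.0071 and a margin of 2.79. It was the only one of the genes with a second probe set of its own. That probe set read 6.94 on all 3 arrays, 1.48 log2 units lower, with a margin of 1.31, and it too was above the reference level when all 23521 probe sets with 1 symbol were tested. A gap of that size or more between a gene's highest and lowest probe set was found for 659 of 1082 genes with several (60.9%), with a median gap of 2.03. The signal of Jund therefore depends on the probe set, while its call does not.

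Both EGR genes were above the reference level. Egr1, a zinc finger factor induced through SRF and ELK sites, had 7.72, 7.77 and 7.71, a mean of 7.73 ± 0.033 and a margin of 2.11. Egr2, also called Krox20 and known for its role in hindbrain patterning and in myelination by Schwann cells, read 7.30 on every array, with a margin of 1.68. The 3 values of Egr2 were exactly equal, so they give no usable estimate of its spread.

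Ier2, a small nuclear protein gene induced by growth factors, read 5.12 on every array and was not above the reference level, with margins of -0.51, -0.42 and -0.60. Of the receptor probe sets, 181 (12.9%) had a mean as high. Its signal was also under the 90th percentile of the receptors on each array, which is 5.27, 5.19 and 5.34. A signal under the level does not show that the transcript was absent, since each of Ier2 and Fosb rests on 1 probe set.

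**Figure D2:**
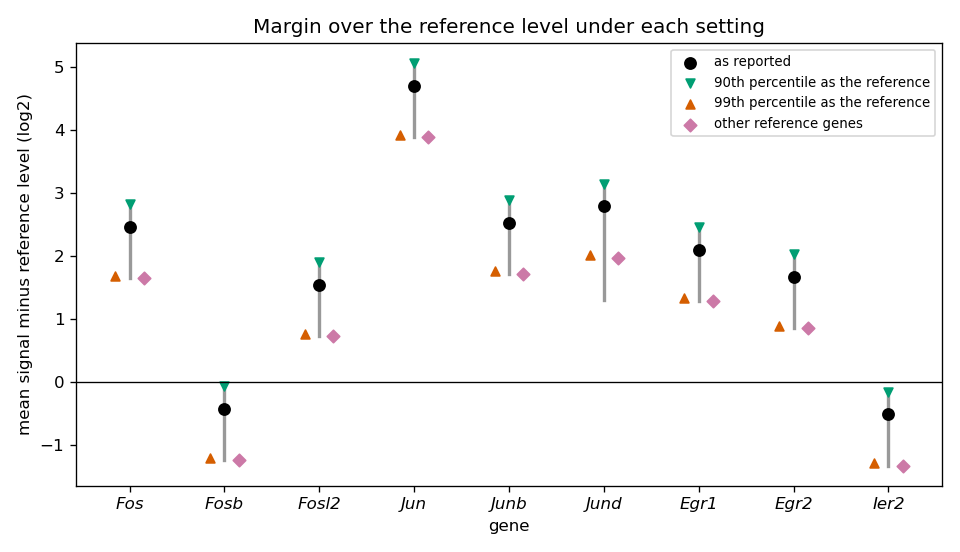
Black points give each gene's mean margin over the reference level (log2) as reported, grey bars the range over 12 other settings, and coloured marks the 3 other reference levels. The 7 genes above stay over 0 under each setting, with Fosl2 at 0.74 as the lowest value, and Fosb and Ier2 stay under 0, at -0.06 and -0.15 at their highest.

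The differences between the arrays were small. Among the 7 genes above the level, the widest range was 0.17 log2 units for Jun, a ratio of 1.12 between its highest and lowest array, and 25.2% of all genes had a range at least as wide. Fos had a range of 0.10 and Egr1 of 0.062, widths that 34.3% and 43.1% of all genes reached. Fosb had the widest range of the 9, at 0.37 or a ratio of 1.29, which 9.71% of all genes reached. The median range was 0.062 over the 9 genes and 0.036 over all genes.

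Array 2 held the highest value of 6 of the 7 genes above the level (Fos, Fosl2, Jun, Junb, Jund and Egr1), and Egr2 was tied. The excess of array 2 over array 1 was between 0.012 for Jund and 0.10 for Fos. Array 2 was also the highest for 41.8% of the 7553 genes whose mean lay between those of Fosl2 and Jun. Of these genes 3.01% were highest on array 3, 2.38% on array 1, and 52.8% were tied for highest. Fosb went the other way. Of 4478 genes with a mean within 0.5 of Fosb, 33.9% were highest on array 3 and 5.23% on array 2, while 58.2% were tied for highest. The shift between arrays was thus shared with many genes of like signal, and its part in these values was not tested.

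Limma's F test of residual over prior variance called 0 of the 9 genes and 0% of all 22180 as differing between arrays, with 0 genes at an unadjusted p under 0.05. This test is void on these values, many of which are equal on all 3 arrays, and its fit had 0.30 prior degrees of freedom. Its lack of calls says nothing about how stable the genes were. With the 5534 genes that have 3 different values, a choice made after seeing the data, limma again called 0 genes after adjustment and 287 (5.19%) without it. Fos, Jun, Junb and Egr1 could be tested there, and Jun had the lowest unadjusted limma p, 0.12 (adjusted p = 0.976).

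**Figure D3:**
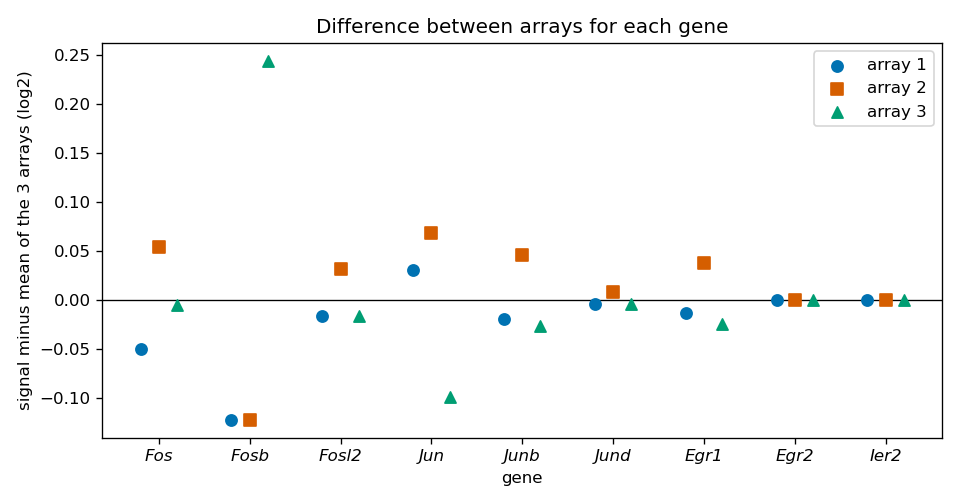
Each point is the signal on 1 array minus the mean of the 3 arrays (log2) for that gene. Array 2 is highest for 6 genes, array 3 stands 0.24 over the mean for Fosb, and Egr2 and Ier2 have equal values on the 3 arrays.

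The other genes of the pathway were taken from lists chosen with earlier results of these data known, and their counts are read beside the 59.1% of all genes. Upstream, all 16 measured SRF, TCF and CREB factors were above the reference level, with a median margin of 3.07 (all genes 0.76). Among them were Srf (8.37 ± 0.084), which binds CArG boxes, its ERK-regulated partners Elk1 (9.24 ± 0.022), Elk3 (8.68 ± 0.052) and Elk4 (8.29 ± 0.036), and the actin-regulated coactivator genes Mrtfa (7.21 ± 0.035) and Mrtfb (8.71 ± 0.0058).

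The kinase cascades that feed these factors were also above. All 7 measured ERK cascade genes of 15 listed were above (median margin 3.74), among them Nras (10.06 on every array), Araf (9.82), Braf (9.84), the MEK genes Map2k1 (8.65) and Map2k2 (8.27 ± 0.11), and the kinase gene Rps6ka3 (9.37). The other 8 listed genes lacked a probe set of their own among the values used and were not analysed here. All 9 measured JNK and p38 cascade genes were above (median margin 3.43), including the JNK genes Mapk8 (9.05), Mapk9 (9.27) and Mapk10 (8.63) and the upstream kinase genes Map3k1 (9.41), Map2k4 (10.00) and Map2k3 (7.43).

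Genes that limit the response were above as well. All 8 MAPK phosphatases were above (median margin 1.52), including Dusp1 (7.66 ± 0.14), itself an immediate early gene, Dusp2 (6.47 ± 0.19), Dusp4 (6.19), Dusp5 (6.81), Dusp6 (7.96 ± 0.13), which acts on ERK, and Dusp10 (7.07). With the 99th percentile as the reference 5 of the 8 were called, set against 44.9% of all genes at that level. All 6 genes of JUN and FOS turnover were above (median margin 3.21), including the ubiquitin ligase genes Fbxw7 (7.63 ± 0.11), Itch (9.84) and Cop1 (10.53). The EGR corepressor genes Nab1 (7.38) and Nab2 (8.70) were above on every array, each with equal values.

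Relatives of the described genes were read in the same way. Of 13 measured AP-1 related bZIP genes 12 were above (median margin 1.05), including Atf3 (7.14 ± 0.076), a stress-induced partner of JUN, Atf2 (9.43), Atf7 (9.96) and Jdp2 (7.27), a repressor that pairs with JUN, while Batf, a factor of immune cells, was not (5.68). Batf2 (5.80 ± 0.16) and Batf3 (5.92) were above by small margins. The count was 6 of 13 with the 99th percentile as the reference, set against 44.9% of all genes at that level. Egr3 (5.92) was above and Egr4 (5.51 ± 0.19) was not. Egr4 exceeded the level on array 3 alone.

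Other immediate early genes were all called, 22 of 22 with a median margin of 1.85, whereas Fosb and Ier2 were not. They included Ier3 (7.41 ± 0.073), Ier5 (7.02) and Ier5l (7.24), named for the same early response as Ier2, the antiproliferative gene Btg2 (10.33), the mRNA decay factor gene Zfp36 (7.54) and Klf2 (6.00). At the 99th percentile 16 of the 22 were called, set against 44.9% of all genes at that level. Of 9 genes known for induction by neuronal activity 4 were above (44.4%; median margin -0.01): Arc (7.04), Nptx2 (7.08), Homer1 (7.95) and Scg2 (6.82). Npas4 (4.70), an activity-regulated factor of neurons, and Bdnf (5.32), a neurotrophin gene, were not above, nor were Vgf (5.61), Pcsk1 (4.84) and Inhba (4.45).

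Of 12 measured genes known as AP-1 targets in other cells, 7 were above (58.3%, close to the share of all genes; median margin 0.40). The cyclin gene Ccnd1 (9.00 ± 0.066), the protease inhibitor gene Timp1 (7.10), the adhesion receptor gene Cd44 (8.35), Ezr (9.77), the EGF receptor ligand gene Hbegf (7.82) and Plau (5.78) were above. The matrix protease genes Mmp3 (4.57), Mmp9 (5.58) and Mmp13 (4.03), the urokinase receptor gene Plaur (5.26) and the cytokine gene Il6 (3.59) were not.

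**Figure D4:**
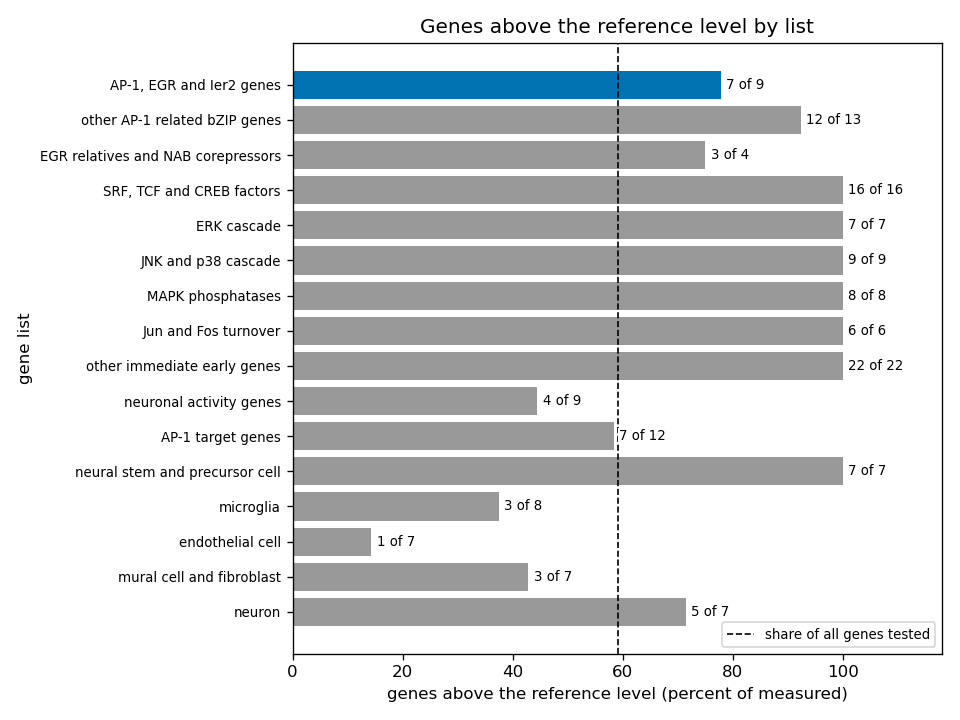
Bars give the percent of measured genes of each list above the reference level, with the counts beside them, and the dashed line marks 59.1%, the share of all genes. The bar of the AP-1, EGR and Ier2 genes ends at 7 of 9, the other immediate early genes at 22 of 22 and the neuronal activity genes at 4 of 9.

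The labelled cell type was checked by its markers, and the counts are read beside the 59.1% of all genes. In lists of 7 or 8 genes, a count near that share says little about whether the cells of the list were present. All 7 measured neural stem and precursor markers were above (median margin 5.79), including Sox2 (11.39 ± 0.073), Nes (8.50), Fabp7 (13.73), Gfap (12.91), Slc1a3 (12.60) and Egfr (11.42). Since immediate early genes are expressed in many cell types, markers of others were read beside them. Of 8 microglia markers 3 were above (Cx3cr1 at 6.66 ± 0.27, P2ry12 at 6.05 ± 0.16 and C1qa at 6.12), and the list's mean signal was 5.50, 5.40 and 5.58 on arrays 1, 2 and 3. Aif1 (4.73 ± 0.27), Csf1r (5.55), Tmem119 (5.59 ± 0.24), Itgam (4.97) and Ptprc (4.27) were not above. Of 7 endothelial markers Kdr (6.84) alone was above, with list means of 5.27, 5.28 and 5.28, and Pecam1 (5.30), Cdh5 (5.48), Cldn5 (5.11), Tek (5.00), Esam (4.84) and Emcn (4.39) were not. Of 7 mural and fibroblast markers 3 were above (Pdgfrb at 6.99, Rgs5 at 7.25 and Col1a1 at 6.24), with means of 5.65, 5.59 and 5.66, and Kcnj8 (4.89 ± 0.28), Col3a1 (5.38 ± 0.13), Dcn (4.70) and Lum (4.00) were not. Of 7 neuron markers 5 were above (Rbfox3 at 7.01, Syt1 at 6.34, Snap25 at 8.57, Gad1 at 6.74 and Camk2a at 7.09), with means of 6.63, 6.62 and 6.66, and Slc17a7 (5.13 ± 0.16) and Nefl (5.58) were not. The means of these 4 lists were each highest on array 3, as were Fosb and the reference level. The lead was small for the endothelial list (5.283 against 5.279 on array 2) and the mural list (5.660 against 5.652 on array 1). The means of the EGR relatives, neuronal activity and AP-1 target lists were also highest on array 3. Such means can rest on few genes. Of the 4 EGR relatives 3 had equal values on all arrays, and Egr4 alone (5.44, 5.37 and 5.72) moved the mean. In the neuronal activity list 1 gene was highest on array 3 alone, and in the endothelial list none was. The part of other cell types in the signals of the AP-1 and EGR genes was not tested.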

How the data were processed

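The authors deposited log2 signals for 41345 probe sets of an Affymetrix array. The submitters' processing notes name RMA, which subtracts background, equalises the arrays and combines the probes of a set. Neither a version nor settings are given in the sources used here. Of the probe sets, 23521 carry 1 gene symbol in the platform annotation, 1814 carry several and 16010 none. Genes were named from those with 1 symbol, taking the probe set with the highest mean over the 3 arrays. Signals minus each array's reference level were fitted with limma 3.58.1 in R 4.3.3 (an intercept, eBayes with an intensity trend), and p-values were adjusted over all 22180 genes. Simulated data served to try out the steps. That trial does not make the F test between arrays usable here, where 39.4% of genes were equal on all 3 arrays. The number of arrays, 3, limits the precision. Every gene of the list is named with all its probe sets, and of each other list up to 6 genes above and 6 not above in the order written, beside genes lacking a probe set of their own. The members and lists were chosen with earlier results of these data known. Genes of like pattern were not sought, since 3 arrays of 1 group hold no pattern to match. Promoters came from RefSeq (GRCm38.p6). Alternatives changed the reference percentile (90 or 99), the reference genes, the probe set, the scaling, the model and the replicates.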

Additional observations from a re-analysis of the deposited data

How the results depend on the processing

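All 9 genes kept their direction and their side of the threshold under the 12 alternatives run, so that 7 were above the reference level in each. Some of these settings could not move a call. Centring the arrays on their medians shifts a signal and its reference level alike, and the choice of probe set could change the margin of Jund alone. The limma adjusted p of Fosl2 reached at most 0.00791 over the 12 alternatives and was 1.08e-128 at its lowest. A t test without moderation, on the spread of each gene's own margins, gave an adjusted p of 0.00237 for Fosl2. That spread includes the shift of the reference level between arrays. The margin of Fosb ranged from -1.23 to -0.06. Under the 99th percentile, and likewise with genes of defensins, bitter taste receptors and keratin-associated proteins as the reference (142 probe sets), the AP-1 related bZIP list fell from 12 to 6 genes above and the MAPK phosphatases from 8 to 5. The other 8 pathway lists stayed within 1.5 times their count. The share of all genes above, 59.1%, was 66.7% at the 90th percentile and 44.9% at the 99th, and 43.5% with the other reference genes. The count of genes differing between arrays was 0 under each alternative, a void result as described above. No paired analysis was possible because there is only 1 group. With 3 arrays and no probe-level files used here, signal near the reference level cannot be resolved further.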
